A study of Mus musculus with 6 samples.

Results

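The 43 genes described here encode the kinases of the mitogen-activated protein (MAP) kinase cascades and the proteins named after them. They were taken by symbol, as every gene that some probe set of the array names alone and whose symbol begins with Map4k, Map3k, Map2k, Mapk followed by a digit, or Mapkapk, out of 17097 genes named in that way. By the order in which they act, they are 3 MAP4K, 15 MAP3K, 6 MAP2K, 10 MAPK and 3 MAPK-activated protein kinase (MAPKAPK) genes, and 6 further genes for scaffold and other proteins that the symbols take in.

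The study asked what dietary maslinic acid (MA), a triterpene of olive fruit, does to gene expression in muscle that has lost its nerve. The 3 arrays of the MA group hold gastrocnemius RNA of male ICR mice (Slc:ICR in the study's methods) fed a diet with 0.27% MA, and the 3 arrays of the control group hold that of mice fed the AIN-93G diet without it. The mice were bought at 7 weeks of age and acclimated for 1 week before the diets began, both sciatic nerves were cut after 1 further week, and the muscle was taken on day 14 after surgery. ICR is an outbred stock, every array is of denervated muscle, and the arrays hold no muscle with an intact nerve to set the values against. The labels do not say that each array is a mouse of its own, and every p-value therefore reflects how far these arrays scatter, which may be technical.

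In a MAP kinase cascade a MAP4K or a small GTPase switches on a MAP3K, which phosphorylates a MAP2K, which in turn phosphorylates a MAP kinase on a threonine and a tyrosine of its activation loop. The main branches end in ERK, which growth factors drive, in p38 and JNK, which stress and cytokines drive, and in ERK5. In skeletal muscle p38 takes part in the differentiation of myoblasts and in the induction of ubiquitin ligases during wasting. The activity of these kinases is set by phosphorylation, which an array does not measure, so all values here are amounts of mRNA.

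Values are log2 signals after RMA, the authors' normalization, of the brightest probe set of each gene. Differences are MA minus control, a gene was called where the adjusted p of limma over 45037 probe sets was under 0.05, and folds were read against the threshold of 1.2 that the study's methods used. The array medians were all 4.27, and the median SD within a group was 0.0365. The highest probe set without a target, with the probes of highest GC content set aside, gave a background level of 3.95. The control set aside for its GC content had a mean of 7.24, above the values of most members. Against the level of 3.95, 35 of the 43 genes were above background in both groups, 2 in one group and 6 in neither. The muscle fiber markers were bright on all arrays, with a summed linear signal of 39245 to 39380 in the MA group, against 36583 to 36635 in the control group. All 18 hybridization control probe sets, which read RNA added to the hybridization mix, were higher in the MA group, by 0.04 to 0.35 with a median of 0.17. Of the 14 members that rose, 3 differed by more than the largest of these controls, and the part of the controls' shift in the results was not tested.

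The cascade genes did not move as one. Of the 43 genes, 14 rose and 11 fell in the MA group, and 18 were not called. So 58.1% were called, beside 47.8% of all 17097 genes. Undetected genes were more common among all genes, with 4755 of 17097 above background in neither group, beside 6 of the 43 members. The part of this in the shares was not tested. The rises made up 32.6% of the members, beside 24.7% of all genes, and the falls 25.6%, beside 23.0%, the last a share near that of all genes. Past the 1.2-fold threshold 6 genes rose (14.0% of members, beside 5.92% of all genes) and 4 fell (9.30%, beside 6.87%), 12.8% of all genes having passed it in either direction. The genes that rose past it were Map3k4, Map2k4, Mapk6, Mapk12, Mapkapk3 and Map3k7cl, and those that fell were Map4k4, Map3k1, Map3k2 and Map3k14. Of the 8 genes that were not above background in both groups, 1 rose and 3 fell. The median difference of the members was 0.0133, and that of all genes was 0.00625. The MA and control arrays did not overlap in 29 of the 43 members, beside 10027 of all 17097 genes. A lack of overlap was thus common on these arrays and did not set a member apart. By tier, higher and lower calls numbered 2 and 1 of 3 MAP4K genes, 3 and 7 of 15 MAP3K genes, 2 and 0 of 6 MAP2K genes, 3 and 1 of 10 MAPK genes, 3 and 0 of 3 MAPKAPK genes and 1 and 2 of the 6 others. The median difference was 0.09 for the MAP4K genes, -0.09 for the MAP3K genes, 0.04 for the MAP2K genes, 0.03 for the MAPK genes and 0.22 for the MAPKAPK genes. That of the 3 MAP4K genes is the value of Map4k1, which was under background in both groups, while Map4k4 fell and Map4k5 rose.

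**Figure D1:**
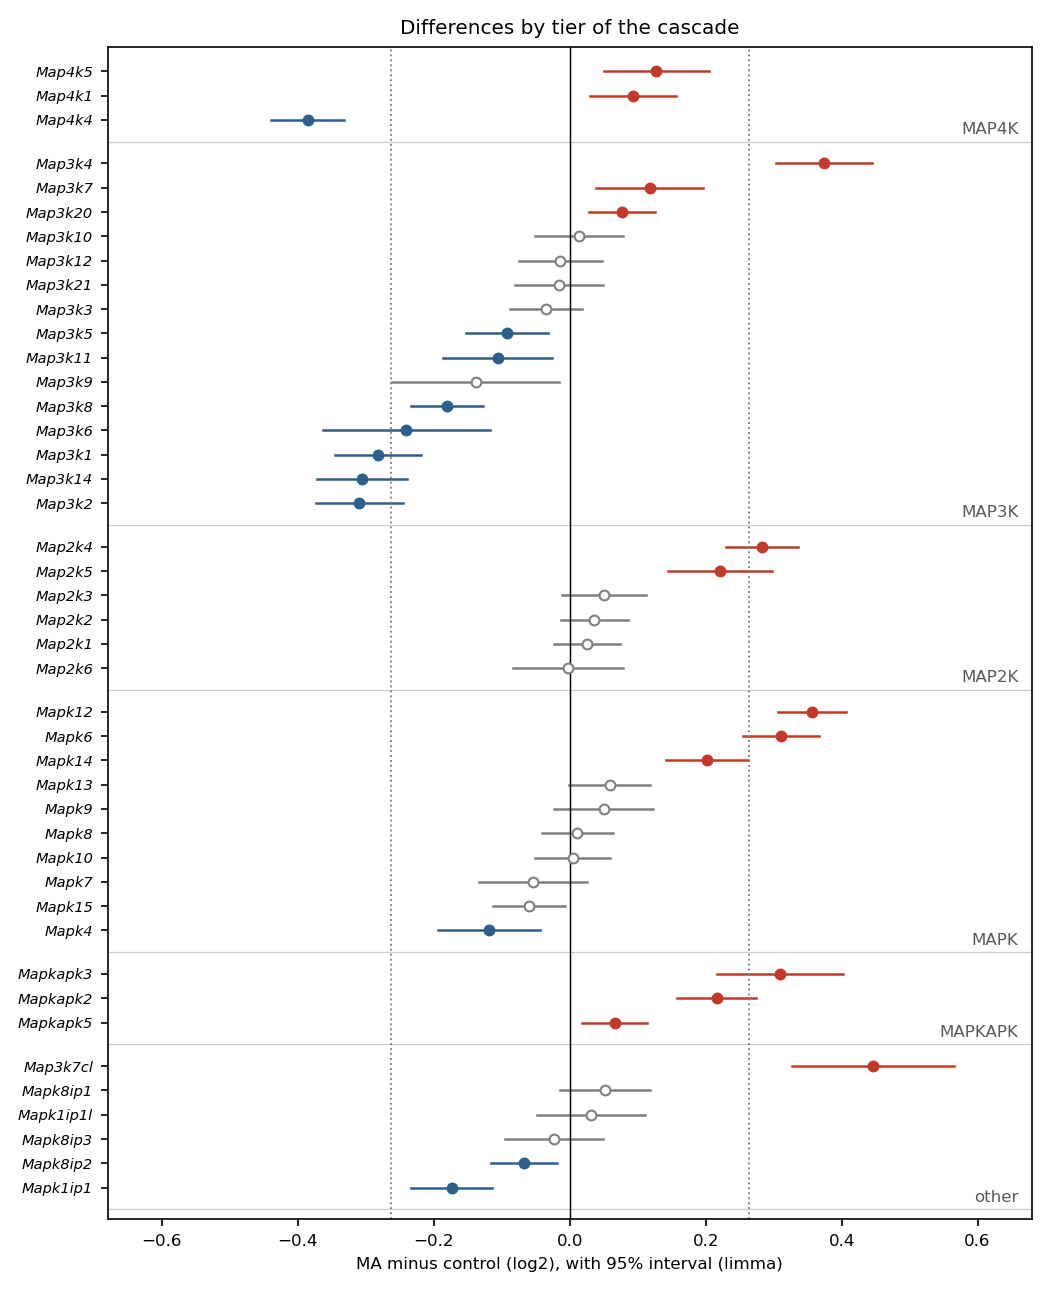
Difference of each of the 43 genes (MA minus control, log2, brightest probe set) with its 95% confidence interval from limma, by tier, with dotted lines at the 1.2-fold threshold and red, blue and open points for higher, lower and not called. Map3k7cl lies farthest right at 0.45 and Map4k4 farthest left at -0.39, and most MAP3K genes lie left of 0 while all MAPKAPK genes lie right of it.

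The promoters of 4 members called past 1.2-fold are shown because their window ends at the edge of the gene's annotated span, and so reads the bases just before the gene. Windows on 1 chromosome were also left out of this choice. They are the 250 bases upstream of the start, from RefSeq on the mouse build GRCm38.p6, 5′ to 3′ on the gene's own strand. The RefSeq table held a promoter for 35 of the 43 members and for 7 of the 10 past 1.2-fold. Capitals mark the CCAAT box (CCAAT) and the GC box (GGGCGG), the sites that NF-Y and Sp1 are known to bind, on either strand.
Mapk6, chr9:75410017-75410266, minus strand: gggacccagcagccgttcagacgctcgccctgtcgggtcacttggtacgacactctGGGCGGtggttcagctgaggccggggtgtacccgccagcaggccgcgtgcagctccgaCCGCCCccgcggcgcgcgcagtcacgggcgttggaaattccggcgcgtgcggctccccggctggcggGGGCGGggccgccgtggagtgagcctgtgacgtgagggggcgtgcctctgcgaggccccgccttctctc
Mapkapk3, chr9:107289878-107290127, minus strand: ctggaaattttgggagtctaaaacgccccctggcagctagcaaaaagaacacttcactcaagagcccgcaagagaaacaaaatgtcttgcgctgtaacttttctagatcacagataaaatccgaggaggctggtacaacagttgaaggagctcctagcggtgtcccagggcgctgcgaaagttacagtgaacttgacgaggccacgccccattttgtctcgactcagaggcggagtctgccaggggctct
Map2k4, chr11:65788360-65788609, minus strand: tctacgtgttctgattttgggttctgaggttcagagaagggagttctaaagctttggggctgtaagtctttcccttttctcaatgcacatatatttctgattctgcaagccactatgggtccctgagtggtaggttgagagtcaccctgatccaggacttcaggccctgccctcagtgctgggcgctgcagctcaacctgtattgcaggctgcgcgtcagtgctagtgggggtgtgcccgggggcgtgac
Map3k14, chr11:103267402-103267651, minus strand: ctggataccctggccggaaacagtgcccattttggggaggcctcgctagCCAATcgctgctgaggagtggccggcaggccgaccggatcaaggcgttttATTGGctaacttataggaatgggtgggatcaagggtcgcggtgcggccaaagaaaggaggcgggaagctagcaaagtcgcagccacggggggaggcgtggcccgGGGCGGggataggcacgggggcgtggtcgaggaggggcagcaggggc
The windows of Mapk6 and Map3k14 held 74% and 65.2% G and C, and those of Map2k4 and Mapkapk3 54% and 51.6%. Mapk6, which rose, had 3 GC boxes, and Map3k14, which fell, had 1 GC box and 2 CCAAT boxes. The windows of Map2k4 and Mapkapk3, which both rose, held neither motif. The 35 members had 47 windows, some genes having more than 1, and 27 of these held a GC box and 12 a CCAAT box, against 32.7% and 33.8% of all 32851 windows of the table. An AP-1 site (TGANTCA, on either strand), the motif of the Jun and Fos proteins, was in 2 of the 47 member windows and in 6.75% of all windows.

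Of the MAP4K genes at the top of the cascade, Map4k4, a Ste20-type kinase that feeds into JNK, fell the most of all members by brightest probe set. It had 6.62, 6.66 and 6.67 in the MA group, against 7.03, 7.03 and 7.04 in the control group. Every MA array was below every control array, and the gap was many times the spread within either group. The difference was -0.39 (SE 0.0233, 95% confidence interval -0.44 to -0.33), a 1.31-fold lower level at an adjusted p = 4.56e-06 by limma. Map4k5, another kinase of the same family, rose by a small amount, with 6.82, 6.92 and 6.87 in the MA group, against 6.69, 6.76 and 6.77 in the control group (1.09-fold, adjusted p = 0.0152). Map4k1, known as a kinase of blood cells, was called higher at 0.09 with means of 3.74 in the MA group, against 3.65 in the control group, both under background, so no fold is given. The call of Map4k5 was lost without MA array 2, and that of Map4k1 without MA array 3 or control array 2 or 3 (highest adjusted p 0.0589 and 0.0858 with an array left out, and 0.0738 and 0.0858 over all alternatives).

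Levels of many genes in a bulk sample follow its cell types, and fewer cells of a type cannot be told apart from less RNA per cell. Of 10 macrophage markers 7 fell and none rose, with a summed signal of 1562 to 1604 in the MA group, against 2499 to 2564 in the control group, though Itgam, one of them, was under background. Of 7 endothelial markers 6 fell (sums of 241 to 248 in the MA group, against 276 to 293 in the control group), and of 4 smooth muscle and pericyte markers 3 fell (1048 to 1071 in the MA group, against 1464 to 1487 in the control group). Of 6 fibroblast markers 3 rose and 1 fell (5471 to 5491 in the MA group, against 4624 to 4694 in the control group). The brightest genes weigh most in such sums. These were Lyz2 for macrophages, Rgs5 for smooth muscle and pericytes, and Col3a1 and Dcn for fibroblasts. Of the last pair, Col3a1 rose by 0.57 and Dcn, at -0.04, was not called. Of 8 T and NK cell markers 5 fell and 1 rose, Nkg7 being 1.46-fold lower, and of 3 Schwann cell markers 2 fell and 1 rose, Mbp being 1.41-fold lower. Of 4 satellite cell markers 2 rose, Myf5 1.46-fold and Cdh15 1.24-fold, and 1 fell. Both measured adipocyte markers were called higher, Adipoq 1.56-fold and Lep at a level under background in both groups. Of the markers called lower, Cd3g of T cells and S100b of Schwann cells were also under background in both groups. Fcgr1 of macrophages and Pax7 of satellite cells were under it in the MA group. Of 3 B cell markers 1 rose and none fell. Of 8 skeletal muscle fiber markers 6 rose and none fell, with a median difference of 0.13 and none past 1.2-fold. The part of these markers in the values of any cascade gene was not tested.

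**Figure D2:**
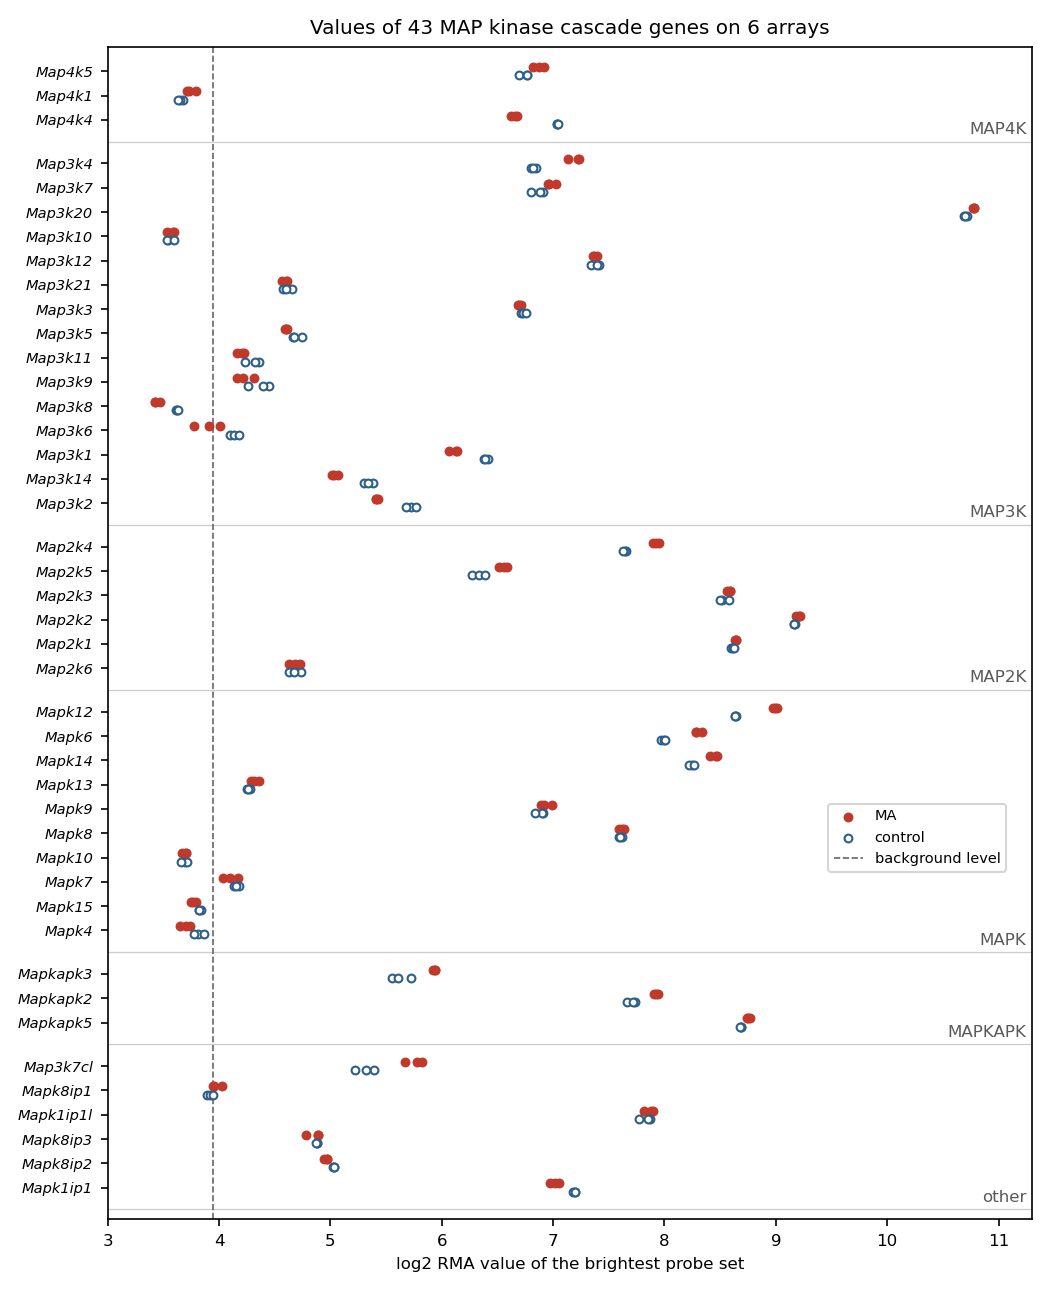
Log2 RMA value of the brightest probe set of each gene on the 3 MA arrays (filled points) and the 3 control arrays (open points), by tier, with the background level of 3.95 as a dashed line. The groups stand apart for Map4k4, Map3k4, Mapk12 and Map3k7cl, and Map4k1, Map3k8, Map3k10, Mapk4, Mapk10 and Mapk15 lie left of the line in both groups.

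Of the 15 MAP3K genes 7 fell and 3 rose, or 46.7% and 20%, beside 23.0% and 24.7% of all genes. Past 1.2-fold were 3 of the falls and 1 of the rises. Among the smaller falls, Map3k8 was under background in both groups and Map3k6 in the MA group. Map3k2 (MEKK2), which acts on the ERK5 and JNK branches, had 5.41, 5.43 and 5.41 in the MA group, against 5.72, 5.77 and 5.68 in the control group. Map3k14, the NF-kB-inducing kinase of the noncanonical NF-kB pathway, had 5.01, 5.07 and 5.03 in the MA group, against 5.30, 5.39 and 5.34 in the control group. Map3k1 (MEKK1), a JNK pathway kinase that is also a ubiquitin ligase, had 6.14, 6.06 and 6.13 in the MA group, against 6.42, 6.38 and 6.39 in the control group. In each of these genes all MA arrays were below all control arrays. The differences were -0.31 for Map3k2 (SE 0.0279, 1.24-fold), -0.31 for Map3k14 (SE 0.0286, 1.24-fold) and -0.28 for Map3k1 (SE 0.0274, 1.22-fold), at adjusted p of 4.72e-05, 5.92e-05 and 7.32e-05 by limma. Map3k1 kept its call but fell under the 1.2-fold threshold without MA array 2 (-0.26) and with quantile normalization again (-0.25).

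The other MAP3K genes that fell moved by less. Map3k6 (ASK2) had 3.78, 3.91 and 4.01 in the MA group, against 4.10, 4.13 and 4.18 in the control group, without overlap. Its MA mean of 3.90 was under background, so it was at least 1.14-fold lower, with the mean of 4.14 of the control group set against the background level (adjusted p = 0.00719). Map3k5 (ASK1), a kinase that thioredoxin holds inactive until oxidation, had 4.61, 4.60 and 4.60 in the MA group, against 4.74, 4.66 and 4.68 in the control group (-0.09, adjusted p = 0.0224). Map3k11, a mixed-lineage kinase, differed by -0.11 (adjusted p = 0.0396). Map3k8, the TPL2 kinase that drives ERK in macrophages, was called lower at means of 3.44 in the MA group, against 3.62 in the control group, both under background. The call of Map3k5 was lost without MA array 2 or 3, and that of Map3k11 with any array but control array 1 left out (highest adjusted p 0.0692 and 0.134, also over all alternatives), while the call of Map3k6 was lost only in the one-way test of the methods, among the alternatives run (adjusted p = 0.0714, the highest, over a range from 0.00109).

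Map3k4, a kinase that GADD45 proteins bind and switch on and that feeds into p38 and JNK, was the one MAP3K gene to rise past 1.2-fold. It had 7.14, 7.22 and 7.23 in the MA group, against 6.80, 6.85 and 6.82 in the control group. The lowest MA array was well above the highest control array, and the difference was 0.37 (SE 0.0307, interval 0.30 to 0.44, 1.30-fold, adjusted p = 2.74e-05). Its brightest probe set, like those of Map3k3 and Mapk1ip1, is of the kind named s_at, whose probes can match transcripts of more than 1 gene. Map3k20 (ZAK), a kinase that senses stalled ribosomes, had 10.78, 10.77 and 10.78 in the MA group, against 10.69, 10.72 and 10.70 in the control group. Its groups did not overlap, but the rise was only 1.05-fold (adjusted p = 0.0197). Map3k7 (TAK1), which carries TGF-beta and interleukin-1 signals to p38, JNK and NF-kB, rose 1.08-fold (adjusted p = 0.024). Without MA array 3 the calls of Map3k20 and Map3k7 were lost, and that of Map3k20 also without MA array 2 or control array 3 (highest adjusted p 0.0577 for Map3k20, also over all alternatives, and 0.0826 for Map3k7, 0.096 over all alternatives).

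The remaining 5 MAP3K genes were not called. Map3k3 (MEKK3) differed by -0.04 (interval -0.09 to 0.02), Map3k12, the DLK kinase known from injured axons, by -0.01 (-0.08 to 0.05), Map3k21 by -0.02 (-0.08 to 0.05) and Map3k10, under background, by 0.01 (-0.05 to 0.08). Map3k9, a mixed-lineage kinase, had 4.31, 4.22 and 4.16 in the MA group, against 4.45, 4.39 and 4.26 in the control group, and its groups overlapped. Its difference of -0.14 (interval -0.26 to -0.02) missed the threshold at an adjusted p = 0.0682 and was called without MA array 1 or control array 3 (range over all alternatives 0.00489 to 0.764).

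Of the 6 MAP2K genes, those called were Map2k4 and Map2k5. Map2k4 (MKK4), which phosphorylates JNK and p38, had 7.90, 7.95 and 7.92 in the MA group, against 7.65, 7.65 and 7.63 in the control group. It was 1.22-fold higher without overlap (difference 0.28, SE 0.0232, adjusted p = 2.69e-05). Map2k5 (MEK5), the kinase of ERK5, had 6.56, 6.52 and 6.58 in the MA group, against 6.27, 6.34 and 6.39 in the control group. It was 1.17-fold higher, also without overlap (0.22, SE 0.0332, adjusted p = 9.31e-04). Map2k1 and Map2k2 (MEK1 and MEK2), the kinases of ERK, were not called. Map2k2 had 9.18, 9.21 and 9.21 in the MA group, against 9.16, 9.17 and 9.16 in the control group, a difference of 0.04 (interval -0.01 to 0.09), and Map2k1 differed by 0.03 (-0.02 to 0.07). Of the kinases of p38, Map2k3 (MKK3) differed by 0.05 (-0.01 to 0.11), and Map2k6 (MKK6) had an interval of -0.08 to 0.08.

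At the level of the MAP kinases, 2 of the 3 measured p38 kinases rose and none of the 3 JNK kinases was called by its brightest probe set. Mapk12 (p38-gamma), the p38 form known for its high level in skeletal muscle, had 8.97, 8.99 and 9.01 in the MA group, against 8.64, 8.65 and 8.63 in the control group. The arrays of each group lay close together and the groups far apart. The difference was 0.36 (SE 0.0217, interval 0.31 to 0.41), a 1.28-fold higher level at an adjusted p = 4.73e-06. Mapk14 (p38-alpha), the form that most p38 inhibitors target, had 8.41, 8.47 and 8.46 in the MA group, against 8.25, 8.22 and 8.27 in the control group. It rose without overlap but by less than the threshold, at 1.15-fold (0.20, SE 0.0261, adjusted p = 3.87e-04). Mapk13 (p38-delta) had 4.32, 4.36 and 4.29 in the MA group, against 4.28, 4.25 and 4.26 in the control group, and though the groups did not overlap, its 0.06 was not called (limma, adjusted p = 0.102).

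The JNK kinases phosphorylate Jun, and their genes are Mapk8, Mapk9 and Mapk10. Mapk8 (JNK1) had 7.59, 7.63 and 7.62 in the MA group, against 7.59, 7.62 and 7.60 in the control group, so that the groups overlapped, with an interval of -0.04 to 0.06. Mapk9 (JNK2) had 6.92, 6.89 and 6.99 in the MA group, against 6.91, 6.90 and 6.84 in the control group, and the interval was -0.02 to 0.12. Mapk10 (JNK3), known mainly from the nervous system, was under background on every array, at 3.67 to 3.71 in the MA group, against 3.66 to 3.71 in the control group.

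Mapk6 (ERK3), an atypical MAP kinase that has a single phosphorylation site in its activation loop and binds the kinase encoded by Mapkapk5, rose past the threshold. It had 8.29, 8.33 and 8.29 in the MA group, against 7.97, 7.99 and 8.01 in the control group. The groups were clearly apart, by 0.31 (SE 0.0242, 1.24-fold, adjusted p = 1.99e-05), though the mean over its 3 probe sets gave only 0.09. Its relative Mapk4 (ERK4) was called lower at means of 3.70 in the MA group, against 3.82 in the control group, both under background, and lost the call without MA array 2 or control array 2 (highest adjusted p 0.0711, and 0.0795 over all alternatives). Mapk15, also under background, and Mapk7 (ERK5) were not called, at -0.06 (interval -0.11 to -0.01) and -0.05 (-0.13 to 0.03). Mapk7 had 4.10, 4.17 and 4.03 in the MA group, against 4.14, 4.18 and 4.15 in the control group, while its kinase Map2k5 rose.

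All 3 MAPKAPK genes, whose products are kinases that p38 or ERK3 activate, rose. Mapkapk3 (MK3) had 5.93, 5.94 and 5.94 in the MA group, against 5.55, 5.72 and 5.61 in the control group. The MA arrays were all higher and nearly equal, while the control arrays were more spread out. Its difference was 0.31 (SE 0.0403, 1.24-fold, adjusted p = 4.14e-04). Mapkapk2 (MK2), which through the RNA-binding protein tristetraprolin prolongs the life of cytokine mRNAs, had 7.94, 7.92 and 7.91 in the MA group, against 7.73, 7.67 and 7.72 in the control group. It rose 1.16-fold without overlap (0.22, SE 0.0252, adjusted p = 2.17e-04). Mapkapk5 (MK5), the partner of ERK3, had 8.77, 8.75 and 8.74 in the MA group, against 8.69, 8.69 and 8.68 in the control group, a 1.05-fold rise (adjusted p = 0.033) that was lost with any array but control array 1 left out (highest adjusted p 0.0853, also over all alternatives). Of the 6 p38 and MAPKAPK genes together, 5 (83.3%) rose and none fell, beside the 24.7% of all genes that rose. Their median difference was 0.21. This count leaves out the MAP2K genes that act on p38. Of those, Map2k3 and Map2k6 were not called by their brightest probe sets, while Map2k4, which acts on JNK and p38, rose.

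Of the further genes, Map3k7cl, which encodes a protein that resembles the C-terminal end of TAK1 and has no kinase domain, rose the most of all members. It had 5.67, 5.78 and 5.82 in the MA group, against 5.22, 5.39 and 5.32 in the control group. The spread within the groups was the widest among the members past the threshold, and the groups still did not overlap. The difference was 0.45 (SE 0.0518, interval 0.33 to 0.56), 1.36-fold at an adjusted p = 2.12e-04. Mapk1ip1 had 6.98, 7.02 and 7.06 in the MA group, against 7.19, 7.18 and 7.20 in the control group, and fell 1.13-fold (adjusted p = 8.39e-04). Mapk1ip1l had 7.81, 7.88 and 7.90 in the MA group, against 7.77, 7.87 and 7.86 in the control group, which overlapped (interval -0.05 to 0.11). Of the JNK scaffold genes, Mapk8ip2 (JIP2) was called lower at -0.07 (adjusted p = 0.031), and lost the call without any 1 of 4 arrays, MA array 2 or 3 or control array 2 or 3 (highest adjusted p 0.0987, and 0.71 over all alternatives). Mapk8ip1 (JIP1) and Mapk8ip3 (JIP3) differed by 0.05 (interval -0.01 to 0.12) and -0.02 (-0.10 to 0.05).

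The array reads several members with more than 1 probe set, and these did not always move together. The 43 genes had 87 probe sets, of which 29 were called higher and 17 lower, beside 42.9% of all 45037 probe sets called in either direction. Of the 23 genes with several probe sets, 4 had all of them called in 1 direction, namely Map2k4, Map3k4, Map3k5 and Mapkapk3. Both probe sets of Map2k4 rose, by 0.28 and 0.33, and the second of Map3k4 and of Mapkapk3 rose by 0.10 and 0.12.

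Mapk8 held the widest disagreement. Of its 4 probe sets, the third by brightness had 6.21, 6.22 and 6.18 in the MA group, against 6.87, 6.96 and 6.97 in the control group, a difference of -0.73 (SE 0.0302, 1.66-fold lower, adjusted p = 5.25e-07) that was the largest in size of any probe set of a member. The first 2 probe sets differed by 0.01 and -0.01 and were not called, and the fourth, near background, by -0.10 (adjusted p = 0.0134). The mean of the 4 gave -0.21 for Mapk8, which was called lower. Which transcripts of Mapk8 each probe set reads was not analysed here.

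Called probe sets went both ways in 4 genes, Mapk6, Mapk14, Map3k2 and Mapk8ip2. The second probe set of Mapk6 rose by 0.14 (adjusted p = 0.00478) and the third, which lay near background, differed by -0.17 (adjusted p = 0.00205). Of the 6 probe sets of Mapk14, 3 rose by 0.20, 0.20 and 0.21, 1 fell by 0.13 (adjusted p = 0.00522) and 2 were not called. Both dimmer probe sets of Map3k2 were under background in both groups and differed by -0.13 and 0.11, and the second of Map3k14 was not called at -0.05 (adjusted p = 0.435). In Map2k3, Mapk9 and Map3k12 a dimmer probe set was called though the brightest was not: the second of Map2k3 had 7.41, 7.40 and 7.38 in the MA group, against 7.13, 7.21 and 7.16 in the control group (0.23, 1.17-fold, adjusted p = 2.61e-04), and the second of Mapk9 rose by 0.11 (adjusted p = 0.031). Map3k20 had a second probe set that rose by 0.34 (adjusted p = 1.36e-05), more than its brightest. With the mean over a gene's probe sets in place of the brightest, 5 members stayed called but came under 1.2-fold, at 0.09 for Mapk6, 0.24 for Map3k4, 0.22 for Mapkapk3, -0.11 for Map3k2 and -0.18 for Map3k14. By the same mean Mapk14 differed by 0.07 and was still called.

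**Figure D3:**
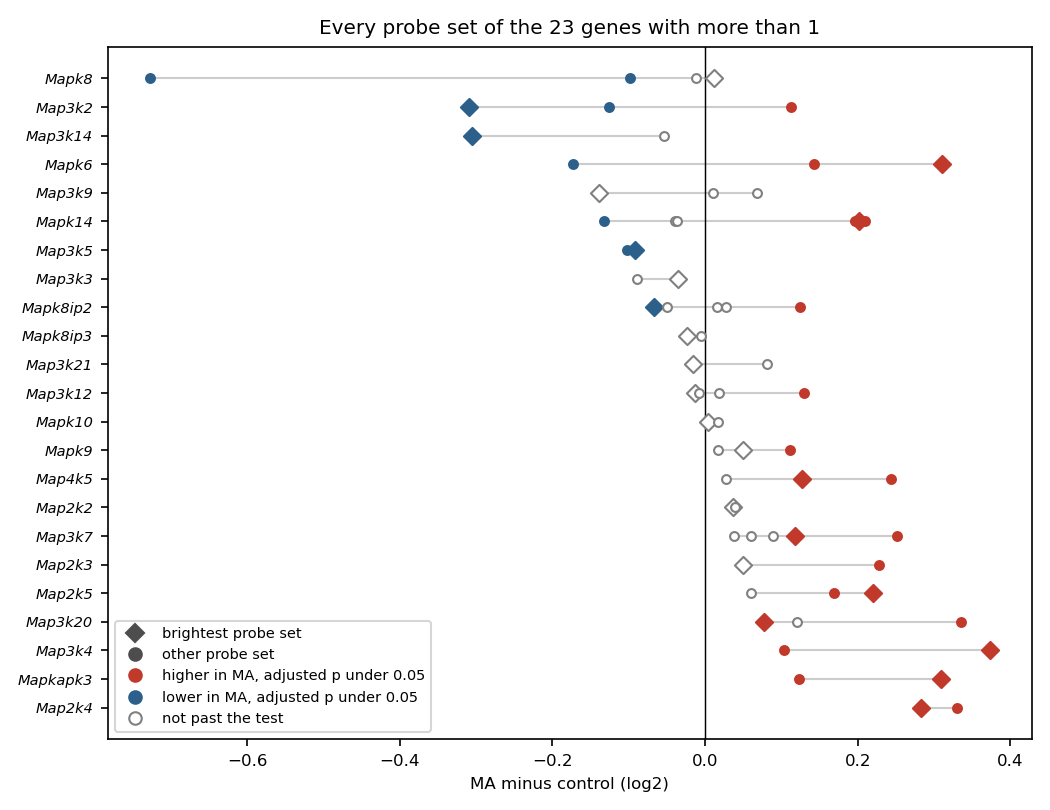
Difference (MA minus control, log2) of every probe set of the 23 members that have several, with the brightest probe set of each gene and the called ones marked. The third probe set of Mapk8 at -0.73 stands apart from its other 3, while both of Map2k4 lie near 0.3.

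Around the cascade, 84 genes from 6 lists of its inputs, regulators and targets were measured, of which 22 rose and 32 fell, with a median difference of -0.05. The rises were 26.2% of these genes, near the 24.7% of all genes, and the falls 38.1%, beside 23.0%. Past 1.2-fold, 7 rose and 12 fell (8.33% and 14.3%), beside 5.92% and 6.87% of all genes. Among the inputs to ERK, 3 of 13 rose and 5 fell. Rras2 (TC21), a Ras-like GTPase, had 9.20, 9.21 and 9.19 in the MA group, against 8.34, 8.34 and 8.35 in the control group, and was 1.81-fold higher (adjusted p = 2.17e-08). Araf, a Raf kinase that phosphorylates MEK, rose by 0.31, and Shc1, an adaptor of receptor tyrosine kinases, fell by 0.38. By the mean over their probe sets these differed by 0.16 and -0.22. Among the stress inputs to p38 and JNK, 2 of 16 rose and 7 fell. Gadd45g, whose protein binds that of Map3k4, had 4.51, 4.59 and 4.65 in the MA group, against 5.26, 5.35 and 5.28 in the control group (1.64-fold lower, adjusted p = 2.52e-06), while Map3k4 itself rose. Traf2, the adaptor that links TNF receptors to MAP3K proteins, had 5.94, 5.97 and 6.07 in the MA group, against 6.66, 6.72 and 6.75 in the control group (1.64-fold lower, adjusted p = 2.44e-06). Tnik, a Ste20-type kinase related to Map4k4, rose by 0.49, while Map4k4 fell.

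Of 20 phosphatases and feedback inhibitors, 8 rose and 5 fell, or 40% and 25%, beside 24.7% and 23.0% of all genes. Dusp2, a MAP kinase phosphatase known from immune cells, fell by 0.55, and Spry1 and Dusp14, inhibitors of the ERK and JNK branches, rose by 0.29 and 0.28. Without control array 1, Spry1 and Dusp14 came under 1.2-fold, at 0.24 each, as did Dusp14 without MA array 1 (0.26). Of 8 other scaffold genes, 4 rose and 4 fell, and past 1.2-fold was Arrb1 alone, at an MA mean of 3.73 under background, which left a lower level by at least 1.05-fold. Of 4 other effector kinases, 2 rose and 1 fell, none past 1.2-fold. Of 23 transcription factors that MAP kinases act on, 3 rose and 10 fell, 7 of them past 1.2-fold, with a median of -0.08. The falls were 43.5% of this list, beside 23.0% of all genes, those past 1.2-fold 30.4%, beside 6.87%, and the rises 13.0%, beside 24.7%. Junb had 6.23, 6.30 and 6.33 in the MA group, against 6.88, 7.11 and 7.08 in the control group (1.67-fold lower), and Fosl2 and Egr1, products of early response genes like it, fell by 0.52 and 0.43. The mean over the probe sets of Fosl2 gave -0.27. Jun, the substrate of the JNK kinases, fell by 0.32, and Fos, at 0.03, was not called.

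**Figure D4:**
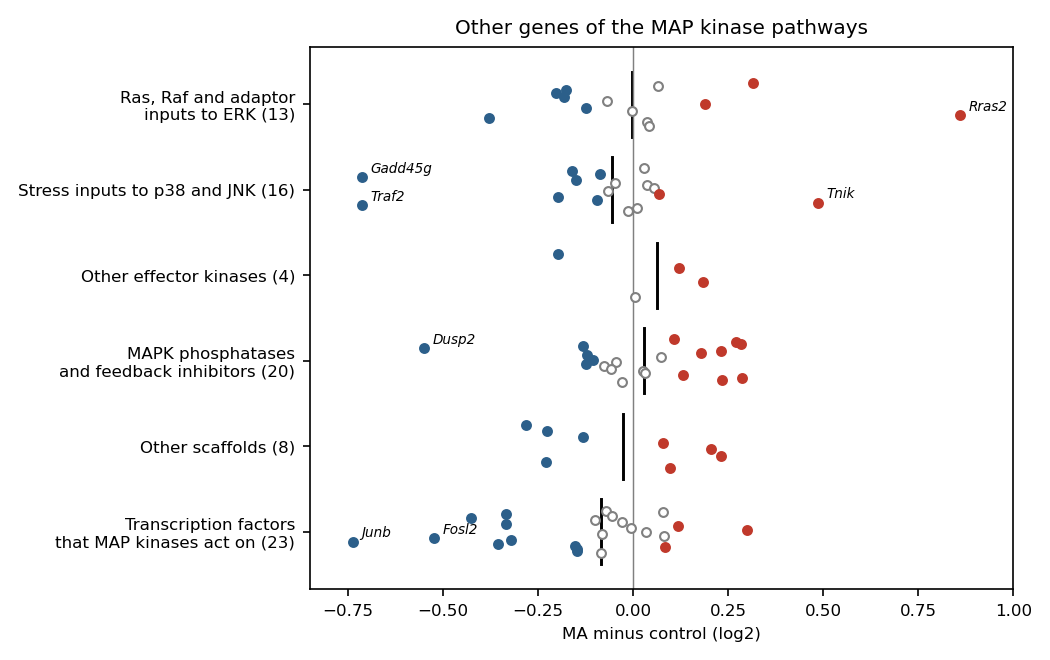
Difference (MA minus control, log2, brightest probe set) of the genes of 6 lists around the cascade, 1 point a gene (red higher, blue lower, open not called), with bars at the list medians. Transcription factors and stress inputs have medians of -0.08 and -0.06, and Rras2 lies farthest right at 0.86.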

How the data were processed

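RNA of denervated gastrocnemius muscle was hybridized to 6 Affymetrix mouse arrays, 3 of each diet. The authors made the values with RMA in Affymetrix Expression Console, and the deposited values are log2 signals that are already normalized between arrays. The sources give different amounts of labelled RNA, and the design text names a human array, though the probe sets carry the names of the mouse array. The authors compared the groups in Transcriptome Analysis Console, and no column of their comparisons was used.

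After 104 array controls were set aside, all 45037 probe sets were fitted with limma 3.58.1 (lmFit and eBayes, no trend, no covariate) in R 4.3.3. The Benjamini-Hochberg adjustment ran over all of these. Genes were named from the platform annotation, where 28898 probe sets name 1 gene, 551 several and 15588 none, and each gene was read by the probe set with the highest mean over the 6 arrays. The symbols of the members were the same in RefSeq. Given with all values were, per tier, members called past 1.2-fold (at most 6), the brightest member and the p38 and JNK genes, and of each surrounding list the 3 largest called differences past 1.2-fold were named. Other members given with all values, Jun, Fos and the dimmer probe sets were chosen after their values were seen. The members and lists were chosen with earlier results of these data known. The steps were tested on simulated data, where 30% of 1.1-fold, 80% of 1.2-fold, 94% of 1.5-fold and 100% of 2-fold changes were called. Of 44837 unchanged probe sets 5 were called. Only 200 probe sets were changed in that simulation, while 19331 were called in the data, so its shares need not hold here. Alternatives covered the test (the methods' one-way test, a trend, robust moderation, array weights), the scaling (quantile again, median centring), dim probe sets left out, a block for the replicate number, the mean over a gene's probe sets, other fold thresholds, and each array left out in turn.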

Additional observations from a re-analysis of the deposited data

How the results depend on the processing

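All 10 members called past 1.2-fold kept their direction and their call under every alternative run, and of the 15 called with a smaller fold 5 did. Of the 18 not called, 6 were called under at least 1 alternative. The higher calls numbered 14 and moved between 10 and 15 over the alternatives. The 11 lower calls became 7 in the one-way test of the methods, and 7 to 11 with an array left out, 7 of them without MA replicate 2. Past the fold threshold, the 6 rises and 4 falls became 0 and 0 at a fold over 1.5. They became 3 and 1 at a fold over the largest hybridization control (1.28-fold). With the mean of a gene's probe sets they became 3 and 2, which left Map2k4, Mapk12, Map3k7cl, Map4k4 and Map3k1. All of these but Map2k4 have 1 probe set each, so that mean could not change them. With that mean, Mapk8 turned to -0.21 and Mapk8ip2 to 0.0101, since their dimmer probe sets differ from the brightest. Quantile normalization again left 3 falls past the threshold. Of all probe sets 19331 were called.

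Arrays of the same replicate number deviated from their group means with correlations of 0.188, 0.0416 and 0.142. MA replicates 1 and 3 correlated best with the control replicate of their own number. MA replicate 2 correlated best with control replicate 3, at 0.0698. The numbers were not taken as pairs in the main fit, and a block for them was run as an alternative. With the replicate block 13 members were called higher and 10 lower, and 19844 probe sets. The 3 arrays a group limit the precision, and a member that was not called is not shown to be equal in both groups. The 6 members under background in both groups carry no fold.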
